A study of Ovis aries with 6 samples.

Results

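The 132 genes described here were assembled from sheep ovary RNA rather than taken from a reference annotation, and each was listed in every library of the study. They were chosen by 2 conditions on the deposited gene table: an identifier that begins with Ovis_arie_newGene, and a level of 1 FPKM or more in all 6 libraries (FPKM divides a gene's fragments by its transcript length and by the library's total). They make up 132 of 1121 assembled genes and of 14480 genes in all. The FPKM values themselves chose the set, so its levels and shares are given as a description, without a test. The choice did not use the breed, which was therefore tested. Identifiers are shortened below to newGene and their number, as in newGene_13259 for Ovis_arie_newGene_13259.

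Transcript assembly joins overlapping reads into transcript models, and loci that match no annotated gene receive a running name of this kind. Such a locus can be an unannotated gene, a missing exon or end of a known gene, a repeated sequence or a noncoding RNA, and FPKM alone does not separate these. Of the 132 genes, 0 carry a symbol and 0 matched an entry of the RefSeq gene table. They come without sequence or position, so that match could use names only and was bound to be empty. It does not show that these loci are absent from RefSeq. No name, position or role is given for any of them. Because FPKM is a value per transcript length, a gene's share of summed FPKM estimates its share of transcripts and not of reads.

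The libraries were made from polyadenylated RNA of ovaries taken during estrus, 3 from Hu sheep, a breed known for large litters, and 3 from Mongolian sheep, which usually bear single lambs. The series title speaks of exosomes, whereas every sample label gives ovary as its source. The labels give neither the ewes' ages nor whether replicates came from separate animals, so p-values measure only the spread between these libraries, which may be technical. Sequencing depth is unknown, since the values are not counts, and no interval or floor that needs depth is given. Values of a breed are listed from replicate 1 to replicate 3.

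The ovarian label was checked against markers. Summed stromal markers (COL1A1, COL3A1, DCN, LUM and PDGFRA) reached 665 to 860 FPKM in Hu libraries and 635 to 746 FPKM in Mongolian libraries. Of 9 granulosa markers 5 were listed (INHA, INHBA, FSHR, HSD17B1 and GATM), and 2 of these were above 0 in every library. INHBB, CYP19A1, FOXL2 and AMH were not listed, so the granulosa check is partial. The listed granulosa markers summed to 36.1 to 182 FPKM in Hu and 49.2 to 66.2 FPKM in Mongolian libraries. All 5 smooth muscle markers were above 0 in every library. Luteal markers varied widely, at 9.74 to 98.4 FPKM in Hu and 2.45 to 307 FPKM in Mongolian libraries. Of 7 oocyte markers 3 were listed by symbol, and these summed to at most 1.29 FPKM in Hu and 1.06 FPKM in Mongolian libraries. BMP15, ZP2, DAZL and DDX4 were not listed, so the oocyte check is partial too. The libraries stood apart in how many assembled genes they listed above 0: 277, 359 and 883 in the Hu libraries against 562, 626 and 593 in the Mongolian ones. The order of libraries was the same over the whole gene table. There 6500, 7971 and 13342 genes were above 0 in Hu libraries, and 10547, 11463 and 10606 in Mongolian libraries. Hu 3 thus listed the most and Hu 1 the fewest, and values below are given library by library for that reason.

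The 132 genes took most of every library. They held 76.4%, 80.0% and 59.4% of the summed FPKM in Hu 1, Hu 2 and Hu 3, and 78.0%, 78.2% and 81.6% in Mongolian 1, Mongolian 2 and Mongolian 3. The mean share was 72.0% ± 10.98 over the 3 Hu libraries and 79.3% ± 2.01 over the 3 Mongolian libraries (± SD). The breeds overlap, and Hu 3 stands well below the other 5 libraries. Ensembl genes took 19.4%, 19.8% and 38.1% of the Hu libraries, and 21.7%, 21.5% and 18.02% of the Mongolian libraries. When the lncRNA table of the study, which takes 6.37% to 15.9% of the joint sum, was added to the total, the set held 64.0% ± 12.3 of Hu libraries and 73.1% ± 3.06 of Mongolian libraries.

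**Figure D1:**
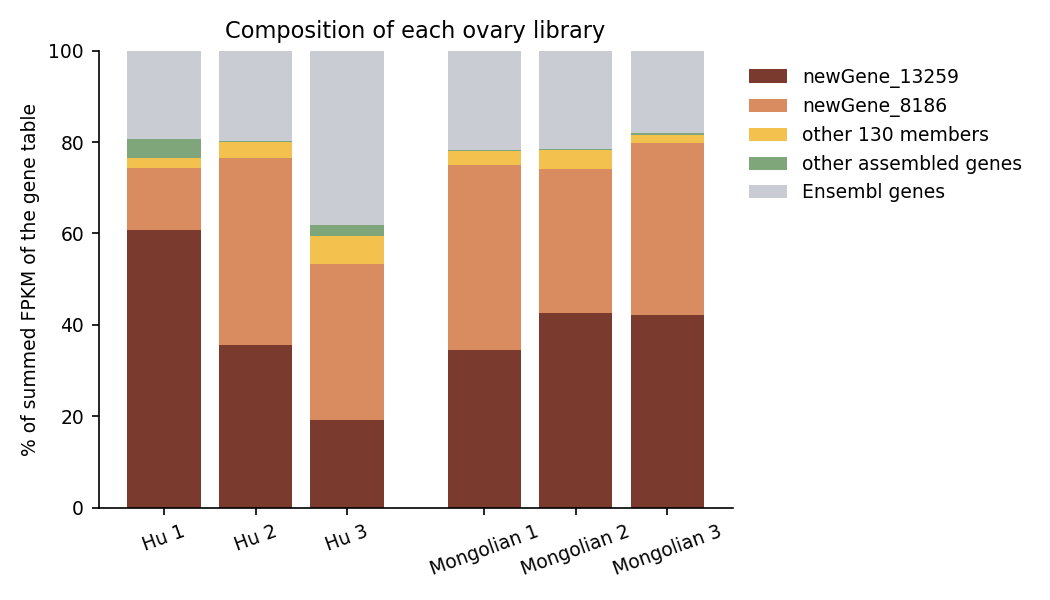
Share of the summed FPKM of the gene table (y axis, percent) taken in each ovary library (x axis) by newGene_13259, newGene_8186, the other 130 genes of the set ("members"), the assembled genes outside the set and the Ensembl genes. The first pair takes 74.2% to 79.7% in 5 libraries and 53.3% in Hu 3, and the balance between them differs most in Hu 1.

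Nearly all of that share belonged to 2 genes. Together newGene_13259 and newGene_8186 held 74.3%, 76.5% and 53.3% of the Hu libraries and 75.1%, 74.2% and 79.7% of the Mongolian libraries. They supplied between 89.6% and 97.7% of the set's own FPKM in each of the 6 libraries. No Ensembl gene came near them: the most abundant, RPLP1, a protein of the ribosomal stalk, averaged 1860 FPKM, and newGene_13259 stood 30.3 to 132 times above it in Hu libraries and 76.8 to 212 times above it in Mongolian libraries.

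The level of newGene_13259 was 214783, 157653 and 86044 FPKM in Hu libraries, and 169930, 210256 and 238072 FPKM in Mongolian libraries. Hu 3 was the lowest and Hu 1 lay among the Mongolian values, so the breeds overlap. The level of newGene_8186 was 47865, 180356 and 153588 FPKM in Hu libraries, and 199161, 156426 and 212872 FPKM in Mongolian libraries. Here Hu 1 was the lowest by a wide margin, and Hu 2 lay within the Mongolian range.

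The balance between the pair was not fixed. The ratio of newGene_13259 to newGene_8186 was 4.49, 0.87 and 0.56 in Hu libraries, and 0.85, 1.34 and 1.12 in Mongolian libraries. Each was therefore the top gene of 3 libraries, and the order of their levels differs between libraries of the same breed. As a share of the library, newGene_13259 took 38.5% ± 20.97 of Hu libraries and 39.7% ± 4.48 of Mongolian libraries (± SD, n = 3 each; two-sided exact permutation test, p = 1). The share of newGene_8186 was 29.5% ± 14.2 of Hu libraries and 36.6% ± 4.52 of Mongolian libraries (n = 3 each; exact permutation test, p = 0.7). On FPKM the exact permutation p was 0.3 for newGene_13259 and 0.2 for newGene_8186, where 3 against 3 libraries cannot go below 0.1. Over the 6 tests run on this pair (FPKM, share and log2 FPKM of each) the lowest Benjamini-Hochberg adjusted p of the exact permutation tests was 0.45. The limma log2 difference between breeds, Hu minus Mongolian, was -0.52 for newGene_13259 with a 95% confidence interval from -2.56 to 1.53, and -0.77 for newGene_8186 with an interval from -2.82 to 1.27. Both intervals reach past a 2-fold change in either direction. The difference of newGene_13259 was -0.15 without Hu 3 and -0.81 without Hu 1, and that of newGene_8186 was -0.17 without Hu 1.

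Each FPKM value is scaled by the library's total fragments, so very abundant genes can bear on the other values. How far this pair did so was not tested. The FPKM left once the pair was removed summed to 90775, 103845 and 210272 across Hu 1 to Hu 3, and to 122491, 127397 and 114778 across Mongolian 1 to Mongolian 3. Hu 3, where the pair held 53.3% of the library, had the largest remainder. The smallest was that of Hu 1, where the pair held 74.3%, and not that of Mongolian 3, where it held 79.7%.

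The next tier held 3 genes that were also far above most of the table. newGene_17487 stood at 2280, 6046 and 10045 FPKM in Hu libraries, and at 5347, 7677 and 3644 FPKM in Mongolian libraries. newGene_5561 stood at 2168, 5721 and 9326 FPKM in Hu libraries, and at 4944, 7190 and 3352 FPKM in Mongolian libraries. Both were highest in Hu 3 and lowest in Hu 1, with the Mongolian libraries between those extremes.

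These 2 genes kept nearly the same proportion in every library. The ratio of newGene_17487 to newGene_5561 was 1.05, 1.06 and 1.08 in Hu libraries, and 1.08, 1.07 and 1.09 in Mongolian libraries, so newGene_17487 was slightly above newGene_5561 in 6 of 6 libraries. The SD of the log2 ratio over the 6 libraries was 0.019. Among all 8646 pairs within the set this pair was the only one under 0.1, the next being newGene_4597 with newGene_3321 at 0.152, and the median pair had 1.11. Among the 6338580 pairs of Ensembl genes at 1 FPKM or more in every library, 487 pairs (0.00768%) were under 0.1 and the smallest value was 0.0205. The pair was singled out after its values were seen, and its likeness is a description over 6 libraries. Whether the 2 identifiers share reads was not tested.

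The summed FPKM of 13 protein genes of the mitochondrial genome, which encode subunits of the respiratory chain, varied in nearly the same order as newGene_17487. That sum was 1669, 4210 and 6547 FPKM in Hu libraries, and 2524, 3868 and 1678 FPKM in Mongolian libraries. Hu 3 was highest and Hu 1 lowest in both quantities, while Hu 2 and Mongolian 2 exchanged places. Those extremes were common: 52.0% of Ensembl genes of the same floor were highest in Hu 3 and 43.7% lowest in Hu 1. Summed reference genes also ran from 887 FPKM in Hu 1 to 2847 FPKM in Hu 3. The comparison with mitochondrial genes was also chosen after the values were seen, and it says nothing of what the assembled gene is.

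At rank 5, newGene_18694 stood at 706, 443 and 2160 FPKM in Hu libraries, and at 537, 1122 and 470 FPKM in Mongolian libraries. Its order differs from that of the 2 before it, since Hu 2 was lowest and Hu 1 lay above both Mongolian 1 and Mongolian 3. The same 5 genes held ranks 1 to 5 within the set in all 6 libraries, with newGene_17487 at 3, newGene_5561 at 4 and newGene_18694 at 5 every time. In the whole gene table newGene_18694 was less fixed, at ranks 10, 26 and 7 in Hu libraries and 21, 8 and 16 in Mongolian libraries.

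**Figure D2:**
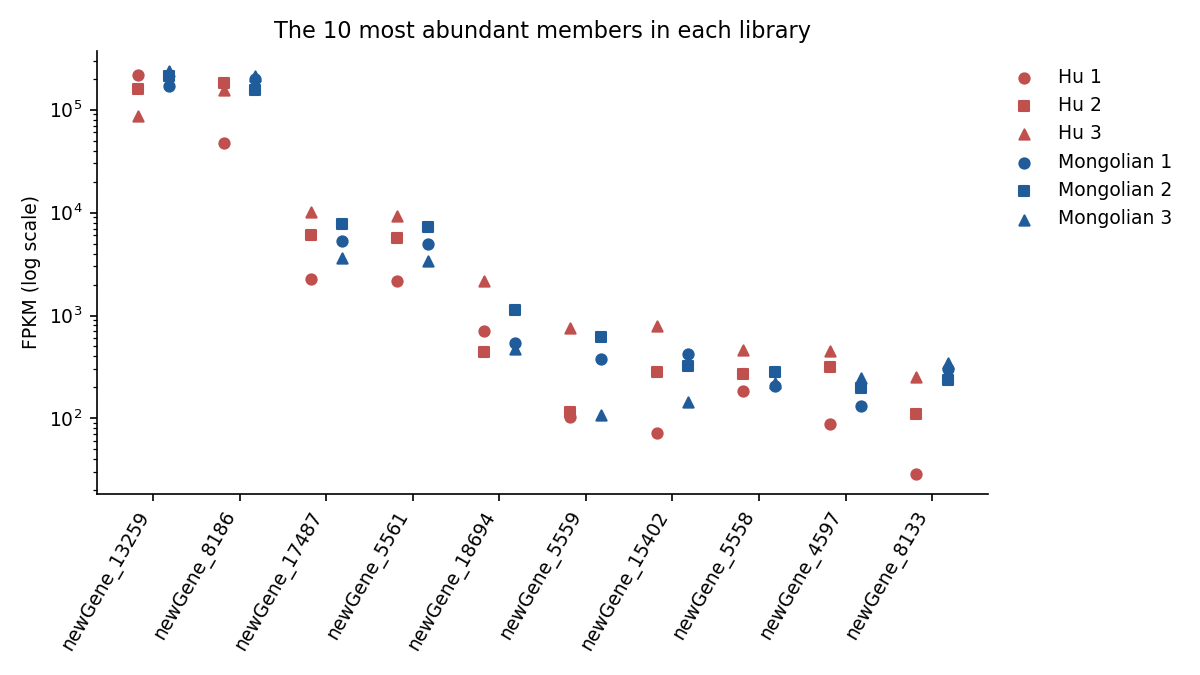
FPKM (y axis, log scale) of the 10 most abundant genes of the set in each library, Hu in red on the left of each gene and Mongolian in blue on the right, with the symbol giving the replicate. The first pair stands above the others in every library, and newGene_17487 and newGene_5561 show the same order of libraries.

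Ranks 6 to 10 changed order from library to library. newGene_5559 stood at 104, 115 and 756 FPKM in Hu libraries, and at 381, 623 and 108 FPKM in Mongolian libraries. newGene_15402 stood at 71.6, 284 and 788 FPKM in Hu libraries, and at 421, 323 and 145 FPKM in Mongolian libraries. Hu 3 was highest and Hu 1 lowest for both, as for newGene_17487.

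newGene_5558 was steadier, at 186, 270.2 and 462 FPKM in Hu libraries, and 208, 285 and 222 FPKM in Mongolian libraries. newGene_4597 stood at 87.6, 319 and 451 FPKM in Hu libraries, and at 132, 199.7 and 247 FPKM in Mongolian libraries. newGene_8133 stood at 29.1, 111 and 253 FPKM in Hu libraries, and at 302, 235 and 348 FPKM in Mongolian libraries. Of the 10 genes, 7 were highest in Hu 3 and 8 lowest in Hu 1, whereas newGene_8133 and the dominant pair were highest in Mongolian 3.

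Below these the set looked like ordinary ovary transcripts in level. Its median gene averaged 7.86 FPKM, against 8.49 FPKM for the 3561 Ensembl genes that met the same floor of 1 FPKM in every library. Means under 10 FPKM were found in 76 of the 132 genes (57.6%) and in 2018 of the 3561 Ensembl genes (56.7%). A further 43 genes of the set averaged 10 to 100 FPKM, 9 averaged 100 to 1000 FPKM and 4 averaged 1000 FPKM or more, where 2 of the 3561 Ensembl genes did. The lowest mean in the set was 2.82 FPKM.

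**Figure D3:**
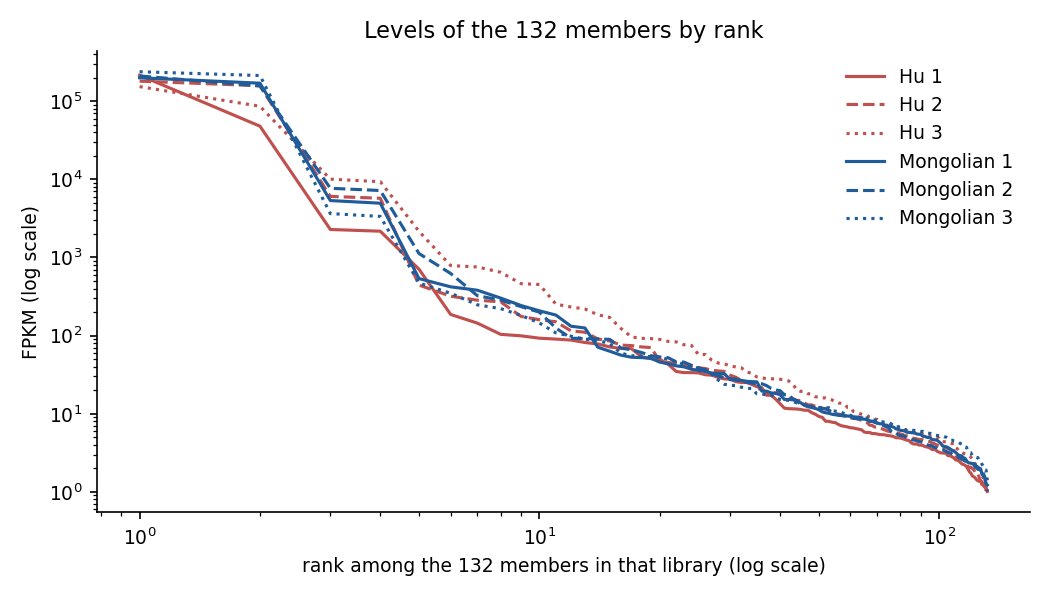
FPKM (y axis, log scale) against rank within the set of 132 genes (x axis, log scale), with a line for each library, Hu in red and Mongolian in blue. The lines drop over the first 10 ranks and then run close together toward the floor of 1 FPKM, and the Hu 3 line lies above the others over the middle ranks.

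Without the dominant pair, the other 130 genes took a modest part of the library. They held 8.21%, 14.9% and 13.2% of the remaining FPKM in Hu libraries, and 11.7%, 15.4% and 9.18% in Mongolian libraries. The mean over Hu libraries was 12.1% ± 3.48, and over Mongolian libraries it was 12.1% ± 3.13 (± SD, n = 3 each). The 122 genes from rank 11 down held 0.516%, 0.489% and 0.798% of the whole Hu libraries against 0.427%, 0.398% and 0.353% of the Mongolian ones, so every Hu value exceeded every Mongolian value on this scale. Of the library without the dominant pair they held 2.01%, 2.08% and 1.71% in Hu against 1.71%, 1.54% and 1.74% in Mongolian, and the breeds then overlap. The split at rank 11 was made after the values were seen and carries no test.

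The rule left out most assembled genes. It was met by 11.8% of the 1121 assembled genes, against 28.6% of Ensembl genes with a symbol and 20.4% of those without. Of the assembled genes 392 (35.0%) were above 0 in 1 library alone, against 11.2% of Ensembl genes. A further 81 assembled genes reached 1 FPKM in 5 of 6 libraries, and 51 of these missed it in Hu 1 and 19 in Hu 2, against 2 in Hu 3, 1 in Mongolian 1, 3 in Mongolian 2 and 5 in Mongolian 3. The other 908 genes outside the set reached it in 4 libraries or fewer. Hu 1 and Hu 2 also listed the fewest genes of the whole table above 0, at 6500 and 7971.

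Just inside the floor, newGene_19457 had its lowest value at 1.013 FPKM in Hu 1, newGene_8162 at 1.02 FPKM in Mongolian 2 and newGene_10572 at 1.02 FPKM in Hu 2. Just outside it, newGene_3181 had 0.99 FPKM in Mongolian 2, newGene_4966 had 0.98 FPKM in Hu 1 and newGene_20409 had 0.93 FPKM in Hu 1. Genes on both sides reached 5.54 to 18.1 FPKM in another library, so the floor separates genes of similar level. An abundant assembled gene outside the set, singled out after its values were seen, was newGene_15404, listed at 14218, 0 and 8725 FPKM in Hu libraries, and at 0, 27.0 and 0 FPKM in Mongolian libraries. It took 4.02% of Hu 1 and 1.94% of Hu 3, most of the 4.15% and 2.45% that assembled genes outside the set held there.

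The 132 genes varied somewhat more between libraries than Ensembl genes held to the same floor. The median SD of log2 FPKM over the 6 libraries was 0.84 in the set and 0.72 among the Ensembl genes. Within Hu the medians were 0.85 in the set and 0.80 among Ensembl genes, and within Mongolian they were 0.65 and 0.49 in that order. Without the 10 most abundant genes the median of the set was also 0.84. The gap was larger after scaling each library to a common sum without the dominant pair, where the median was 0.83 in the set and 0.62 among Ensembl genes. The highest library exceeded the lowest less than 2-fold in 4 genes, by 2-fold to 5-fold in 72, by 5-fold to 10-fold in 44 and by at least 10-fold in 12.

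The steadiest gene was newGene_17448, at 6.62, 6.74 and 8.46 FPKM in Hu libraries, and 9.45, 6.76 and 7.41 FPKM in Mongolian libraries, a highest value 1.43 times the lowest. newGene_8136 was steady at a higher level, with 78.2, 75.7 and 84.3 FPKM in Hu libraries, and 125, 69.4 and 89.9 FPKM in Mongolian libraries. The others of the 4 smallest spreads were newGene_19469, at 33.3 to 48.5 FPKM in Hu and 36.3 to 56.2 FPKM in Mongolian libraries, and newGene_15070, at 3.98 to 6.24 FPKM in Hu and 3.81 to 6.89 FPKM in Mongolian libraries. In all 4 the breeds overlap.

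The widest spread was that of newGene_7388, at 53.7, 74.5 and 646 FPKM in Hu libraries, and 52.3, 91.7 and 21.1 FPKM in Mongolian libraries. Hu 3 alone carries it, and the other Hu libraries lie within the Mongolian range. newGene_7056 likewise peaked in Hu 3, with 5.58, 2.07 and 28.8 FPKM in Hu libraries, and 1.27, 6.47 and 2.77 FPKM in Mongolian libraries. newGene_18259 peaked in Hu 1, with 27.8, 2.73 and 6.28 FPKM in Hu libraries, and 5.44, 1.94 and 10.8 FPKM in Mongolian libraries. newGene_17345 peaked in Mongolian 1, with 11.4, 7.16 and 2.14 FPKM in Hu libraries, and 27.3, 3.33 and 15.0 FPKM in Mongolian libraries. The wide spreads therefore lie between libraries of the same breed.

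**Figure D4:**
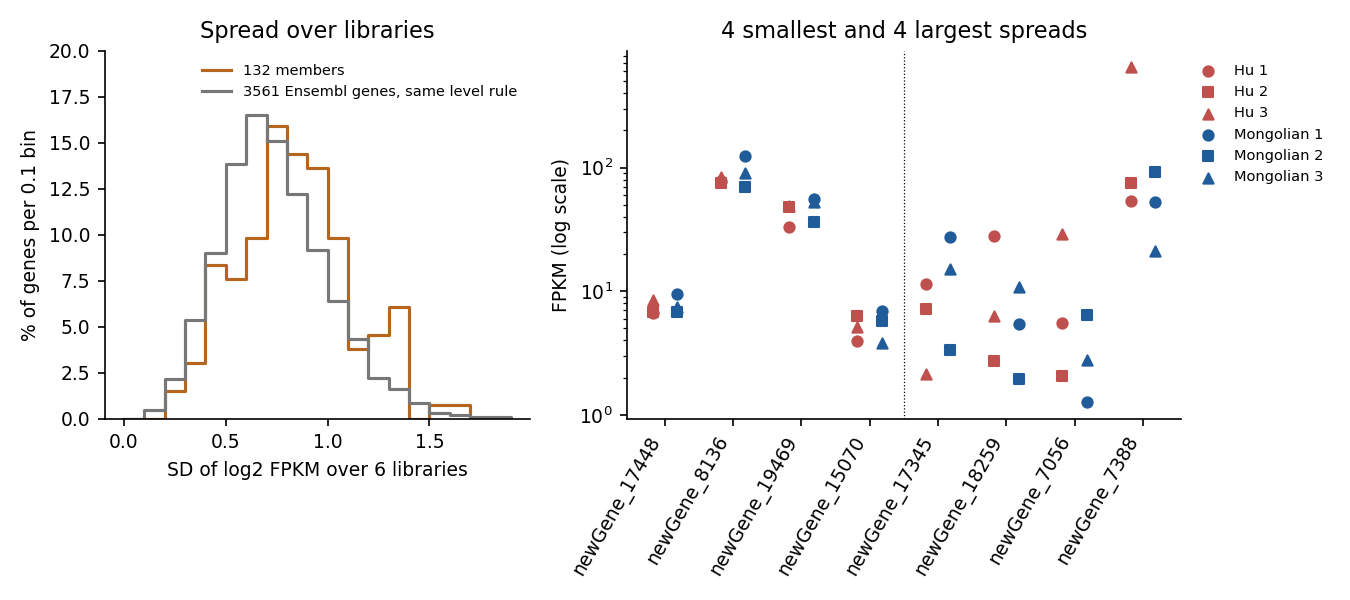
Left, percent of genes (y axis) per 0.1 bin of the SD of log2 FPKM over the 6 libraries (x axis), for the 132 genes of the set and for 3561 Ensembl genes at 1 FPKM or more in every library. Right, FPKM (log scale) per library of the 4 genes with the smallest and the 4 with the largest spread, Hu in red and Mongolian in blue; the medians at left are 0.84 and 0.72.

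Libraries differed in which of them carried the extremes. As deposited, 45 of the 132 genes (34.1%) had their lowest value in Hu 1 and 47 (35.6%) their highest in Hu 3, against 43.7% and 52.0% of Ensembl genes of the same floor. As a share of the library without the dominant pair the pattern turned: 43 genes (32.6%) then had their lowest value in Hu 3, and 42 (31.8%) their highest in Mongolian 3. Among Ensembl genes of the same floor the shares on that scale were 23.9% and 36.5%. Across the 132 genes the Spearman correlation of levels ranged from 0.71 to 0.77 within Hu, from 0.68 to 0.76 within Mongolian and from 0.55 to 0.80 between breeds. These are correlations across genes of libraries that share their processing, and genes are not independent replicates. Libraries of the same breed were not more alike than libraries of different breeds, with medians of 0.72 within Hu, 0.69 within Mongolian and 0.71 between them. Among Ensembl genes of the same floor the medians were 0.73, 0.78 and 0.75 in the same order, and the most and the least alike pairs of libraries were the same as in the set, Hu 3 with Mongolian 2 or Mongolian 3 on both counts.

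The breed comparison asked whether any of these genes differed between Hu and Mongolian ovaries. In limma on log2(FPKM + 1), fitted to the 9971 genes that reached 0.5 FPKM in 3 or more libraries, 0 of the 132 genes had a Benjamini-Hochberg adjusted p under 0.05, against 0% of all genes tested. All 132 passed that filter, as their floor ensures. The lowest limma adjusted p in the set was 0.998. At an unadjusted p under 0.05 there were 6 (4.55%), against 3.73% of all genes tested and 1.63% of Ensembl genes of the same floor. Of these 4 (3.03%) were higher in Hu, against 0.913% of all genes tested, and 2 (1.52%) lower, against 2.82%. Among the 3561 Ensembl genes of the same floor, 35 were higher and 23 lower at that threshold. Both are smaller shares than in the set, where the shares rest on 4 and 2 genes. The median unadjusted 95% interval of a gene of the set reached 1.40 to either side on the log2 scale. That width is no limit for the adjusted test. There newGene_4938 at 1.64 and newGene_8133 at -1.62 also had a limma adjusted p of 0.998. A gene that was not called can still differ.

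Of the 132 genes 61 had a positive difference and 71 a negative one (46.2% positive, against 32.3% of all genes tested). Their median log2 difference was -0.04, beside -0.28 for all genes tested and -0.09 for Ensembl genes of the same floor. This split followed the scaling between libraries. The number with a positive difference was 75 (56.8%) with median-of-ratios scaling and 77 (58.3%) with quantile normalization. It was 87 (65.9%) when libraries were set to a common sum, and 58 (43.9%) when that sum left out the dominant pair. The median of all genes tested moved in the same settings to -0.23, 0.02, -0.09 and -0.37. The number was 73 of 132 without Hu 1 and 45 without Hu 3.

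The breeds did not overlap in 17 genes of the set (12.9%), against 7.92% of all genes tested and 8.42% of Ensembl genes of the same floor. The Hu values were all above the Mongolian values in 4 genes (3.03%), against 1.88% of all genes tested and 2.95% of Ensembl genes of the same floor. They were all below the Mongolian values in 13 genes (9.85%), against 6.05% of all genes tested and 5.48% of the Ensembl genes. With a common sum without the dominant pair 3 genes (2.27%) were above and 7 (5.30%) below, against 3.79% and 8.73% of the Ensembl genes. The larger share of lower genes was thus not seen on that scale. Nor was it with median-of-ratios scaling (4.55% against 5.42% below) or quantile normalization (3.03% against 5.31%). With the common sum of all genes it was seen (3.79% against 2.44%). Over both directions together, the set's share lay below that of the Ensembl genes in each of these settings. It was 7.58% against 12.5% with the sum without the dominant pair, and 7.58% against 12.6% with median-of-ratios scaling. With quantile normalization it was 6.82% against 12.5%, and with the common sum of all genes 9.85% against 10.8%.

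Genes with the smallest unadjusted p are given next, 6 in each direction, although 0 genes of the set were called. newGene_10821 led those higher in Hu, at 90.2, 160 and 83.1 FPKM in Hu libraries, and 43.6, 27.7 and 53.7 FPKM in Mongolian libraries. Its mean was 111 ± 42.3 FPKM for Hu and 41.7 ± 13.1 FPKM for Mongolian (± SD, n = 3 each), and the breeds do not overlap. Its log2 difference was 1.38 with a standard error of 0.48 and a limma adjusted p of 0.998.

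newGene_4938 had the largest positive difference of the 12, 1.64 with a standard error of 0.62, from 43.0, 21.0 and 76.4 FPKM in Hu libraries and 7.56, 28.3 and 8.87 FPKM in Mongolian libraries. Hu 2 lies below Mongolian 2, so its breeds overlap. newGene_19873 was even within Hu, at 13.5, 13.8 and 16.3 FPKM in Hu libraries, and stood at 4.64, 9.41 and 2.74 FPKM in Mongolian libraries. newGene_3087 stood at 22.2, 14.7 and 28.1 FPKM in Hu libraries, and at 3.61, 10.5 and 11.97 FPKM in Mongolian libraries, and neither of these genes overlaps between breeds. The remaining pair in this direction overlaps: newGene_7388, whose difference of 1.54 was 0.43 without Hu 3, and newGene_18115, at 37.9 to 123 FPKM in Hu and 17.3 to 65.9 FPKM in Mongolian libraries.

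newGene_8133 had the smallest p among genes lower in Hu, with a log2 difference of -1.62 and a standard error of 0.63 from the values given above, and means of 131 ± 113 FPKM for Hu and 295 ± 57.1 FPKM for Mongolian (± SD, n = 3 each). Hu 3 lies above Mongolian 2, and without Hu 1 the difference was -0.80. newGene_2207 stood at 10.3, 4.39 and 1.52 FPKM in Hu libraries, and at 12.2, 11.98 and 17.99 FPKM in Mongolian libraries. newGene_18554 stood at 1.60, 1.07 and 1.25 FPKM in Hu libraries, and at 5.15, 2.76 and 8.87 FPKM in Mongolian libraries. Neither overlaps between breeds.

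newGene_18544 stood at 2.27, 2.74 and 1.20 FPKM in Hu libraries, and at 4.15, 5.85 and 10.6 FPKM in Mongolian libraries. newGene_20774 stood at 2.56, 8.08 and 5.55 FPKM in Hu libraries, and at 12.3, 9.52 and 15.2 FPKM in Mongolian libraries. Neither of these overlaps, whereas newGene_7421 does, at 25.8, 3.93 and 9.67 FPKM in Hu libraries, and 26.7, 24.2 and 23.9 FPKM in Mongolian libraries. Hu 1 lies at the Mongolian level, which was even. The difference of newGene_7421 was -1.21 with a standard error of 0.62.

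**Figure D5:**
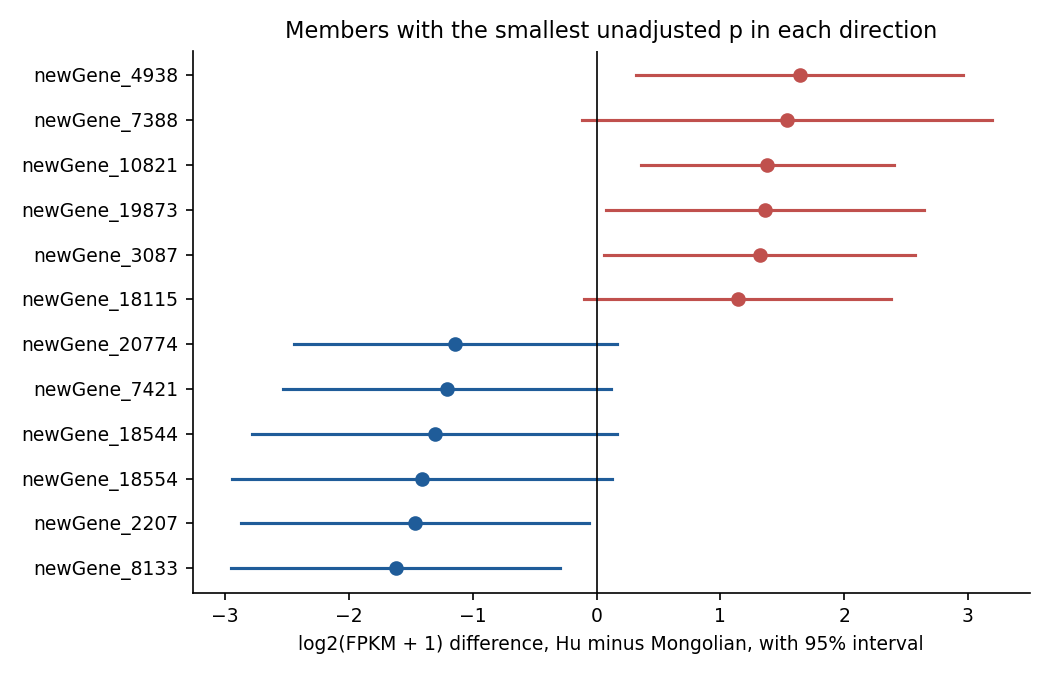
Difference of log2(FPKM + 1), Hu minus Mongolian (x axis), with its unadjusted 95% interval, for the 6 genes of the set with the smallest limma p in each direction (y axis), higher in Hu in red and lower in Hu in blue. Intervals of 6 of the 12 genes cross 0, and the limma adjusted p was 0.998 for each.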

How the data were processed

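The authors deposited FPKM values for genes and, in a second table, FPKM values for lncRNAs, with a column per library. Which aligner, assembler, counting tool and genome build were used is not given in the sources used here. Columns were matched to samples by the codes in the sample descriptions, and groups and replicate numbers came from the titles. The set and all lists were chosen with earlier results of these data known. Named genes followed a rule: the 10 highest mean shares, the 6 smallest p in each direction, the 4 smallest and largest spreads, and 3 on each side of the floor.

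Breeds were compared with limma 3.58.1 (R 4.3.3; a linear model with breed as its factor, then eBayes with a trend), two-sided, on log2(FPKM + 1), which understates changes of low genes. Genes that reached 0.5 FPKM in 3 or more libraries were fitted. The limma fit was also run on simulated data, with less spread between libraries than the median gene had here. That run does not show how well it finds changes in these libraries. Exact permutation tests used scipy 1.17.1. Whole reads could not be recovered from the values: in every pair of libraries the ratios of genes under 2 FPKM were spread out, with no more than 0.566% of them in any 0.2% bin. No pair of libraries held identical values above 0. Alternatives were other pseudocounts, filters, scalings, variance models, floors and totals, the replicate number as a block, and leaving out libraries.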

Additional observations from a re-analysis of the deposited data

How the results depend on the processing

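Of the 132 genes 0 passed under every alternative of the breed test except limma array weights, which called 4 (633 of 9971 genes in all, 6.35%) and weighted Hu 2 most (3.64; Hu 1 had 0.41 and Hu 3 had 0.25): newGene_10821 at 1.89 and newGene_17189 at 1.57 higher in Hu, newGene_7421 at -2.12 and newGene_8133 at -1.46 lower (limma adjusted p 0.0116 to 0.0346); the cause was not tested. At an unadjusted p under 0.05, 6 of the 132 genes passed as reported. When only genes at 1 FPKM or more in every library were fitted, 13 of the 132 passed, a larger share than the 4.31% of those genes. With array weights 24 of the 132 passed, a smaller share than the 27.5% of all genes tested. The median log2 difference became 0.22 after rescaling to a common sum, which removes the lower Hu totals, and -0.23 to 0.11 when single libraries were left out.

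A floor of 5 FPKM gave 50 genes and a floor of 1 FPKM in 5 of 6 libraries gave 213; leaving out single libraries gave 133 to 183. The mean share was 12.1% in both Hu and Mongolian without the dominant pair, and in Mongolian 73.1% with the lncRNA table and 82.8% of the genes at 1 FPKM or more in every library. Single libraries left out moved it between 67.9% and 78.2% in Hu and between 78.1% and 79.9% in Mongolian.

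Of 21 named genes 13 kept their direction in every alternative. The difference turned for newGene_8186 after quantile normalization (0.22). For newGene_17487, newGene_5561 and newGene_15402 it turned after median-of-ratios scaling (0.13, 0.15 and 0.067), after rescaling to a common sum (0.29, 0.31 and 0.22) and without Hu 1 and Hu 3 together (0.19, 0.22 and 0.069). With array weights newGene_5561 turned to 0.023 and newGene_18694 to -0.43, and newGene_18694 turned to -0.57 without Hu 1 and Hu 3. Leaving out single libraries gave -0.81 to -0.15 for newGene_13259, -1.13 to -0.17 for newGene_8186, -0.52 to 0.55 for newGene_17487, -0.48 to 0.57 for newGene_5561, -0.92 to 0.80 for newGene_15402, -0.23 to 0.91 for newGene_18694, -1.43 to 0.037 for newGene_5559, -0.071 to 0.58 for newGene_5558 and -0.16 to 1.02 for newGene_4597. Where 1 library of a breed remained, it was taken to vary like the others. The cause of these turns was not tested.

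With the replicate number as a block 0 genes of the set passed and 3 had an unadjusted p under 0.05. Over the genes tested, deviations of libraries with the same number had correlations of -0.01, -0.03 and -0.18. Over the set they were -0.07, -0.25 and -0.40, and libraries with different numbers ranged from -0.22 to 0.44. So few correlations cannot decide whether the numbers mark a pairing.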
